A study of Mus musculus with 16 samples.

Results

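The proteasome is the large protease that degrades ubiquitin-tagged proteins, and its transcripts were compared between tagged ribosomes of hypothalamic prepronociceptin (Pnoc) neurons and whole hypothalamus. Its genes were chosen by symbol, as protein-coding entries that begin with Psma to Psmg followed by a digit and that stood in the deposited table of chow or of high-fat diet. This gave 35 genes among 8289 listed gene identifiers, with 32 genes in each table and 29 in both. The mice carried PNOC-L10a-EGFP, which puts a fluorescent tag on ribosomes, on a C57BL/6N background and were 10 to 12 weeks old. Feeding lasted 3 days on either control diet (called chow) or high-fat diet, and each had 4 input libraries from hypothalamus and 4 libraries of RNA precipitated with the tagged ribosomes (BacTRAP), 16 in all. All groups carried the transgene. How many mice stand behind a library is not given in the labels.

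The proteasome has a barrel-shaped core of stacked rings, in which alpha subunits form the gate and beta subunits hold the proteolytic sites. A regulatory particle caps the barrel, and its ATPases unfold the substrate while its other subunits bind and remove ubiquitin. Interferon exchanges the standard catalytic subunits for those of the immunoproteasome, which cuts peptides for MHC class I presentation and is best known from immune cells. Neurons use the proteasome to turn over synaptic proteins.

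The deposited tables hold a single FPKM value per group (fragments scaled by transcript length and by the number of mapped fragments) and only entries the authors called significant at a q-value of 0.05. Read depth and the values of single libraries are unknown, so no spread between libraries can be given. The error of a log2 fold is a standard error (SE) recovered as the fold divided by the authors' test statistic. The deposited p-values of all listed proteasome genes are smaller than these statistics would give as normal scores, so the SEs are wide. Pnoc itself went from 4.62 to 19.9 FPKM in chow and from 4.35 to 19.8 FPKM after the high-fat diet. The 5 pan-neuronal markers chosen (Snap25, Rbfox3, Syn1, Stmn2 and Elavl4) were enriched in both diets, with median log2 folds of 0.69 and 0.78. Map2, another pan-neuronal marker, was not in this list, so it does not show that all such genes were enriched. Each of the 6 astrocyte and 6 oligodendrocyte markers had a lower level than in input. These folds compare precipitated RNA with input and measure neither the number of cells nor the RNA per cell. For levels in input, which is bulk tissue, fewer cells of a type and less RNA per cell cannot be told apart.

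Proteasome transcripts were mostly enriched on tagged ribosomes. In chow 29 of the 32 listed genes were enriched and 3 were depleted, while 53.8% of all 6686 listed tests were enriched and 46.2% depleted. Among listed protein-coding tests of at least 5 FPKM the enriched share was 69.4%, and the depleted share 30.6%. After the high-fat diet the counts were again 29 and 3, beside 55.2% enriched and 44.8% depleted tests overall and 71.3% and 28.7% among protein-coding tests of at least 5 FPKM. The 3 depleted genes were the same in both diets, namely Psmb8, Psmb9 and Psme4, although at a q of 0.01 Psmb9 would not be called after the high-fat diet. All 29 genes listed in both tables had the same direction in both as deposited. This agreement is not shown to be particular to proteasome genes. The matching share over all tests in both tables is not given here, and the folds of those tests had a Spearman's rho of 0.96 between diets. With folds taken relative to the median of all listed tests, Psmd12 in chow and Psma1 and Psma5 after the high-fat diet fell on the lower side too, giving 28 above and 4 below in chow and 27 and 5 after the high-fat diet. Since listing itself required the authors' call, these counts describe listed genes only.

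Enrichment was moderate. Log2 folds of the enriched genes ran from 0.31 to 0.85 in chow and from 0.32 to 0.82 after the high-fat diet, with median folds of 1.49 and 1.47. The smallest enriched log2 fold of any listed test was 0.29 in each diet, so listing limits this range from below. Between the lower and upper quartile of all enriched tests lay 15 of the 29 in chow, with 10 below and 4 above. After the high-fat diet these counts were 18, 8 and 3. Their median log2 folds of 0.57 and 0.56 lay beside 0.60 and 0.59 for all enriched tests. No proteasome gene reached a 2-fold enrichment, a limit passed by 8.09% of enriched tests in chow and 5.76% after the high-fat diet. Over all listed proteasome genes, depleted ones included, the median log2 fold was 0.56 in chow and 0.52 after the high-fat diet, beside 0.37 and 0.39 for all listed tests.

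**Figure D1:**
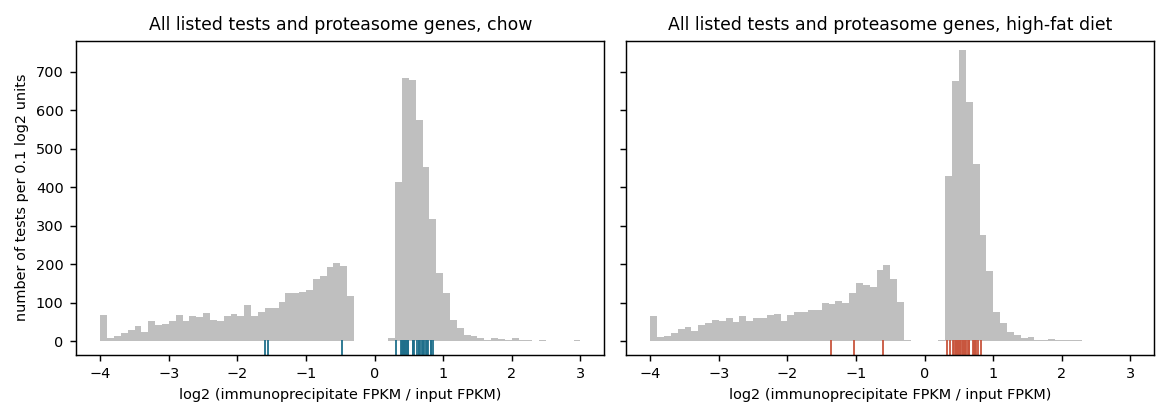
Number of listed tests (vertical axis) by log2 ratio of immunoprecipitate over input FPKM (horizontal axis) for each diet, with tests below -4 pooled in the leftmost bar and coloured ticks for the proteasome genes. In each diet 29 ticks lie within the narrow enriched peak, between 0.31 and 0.85 in chow, and 3 lie on the depleted side.

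The beta subunits of the core include its 3 proteolytic subunits and were enriched throughout. Psmb6, which carries the caspase-like site, went from 122 FPKM in input to 220 FPKM in immunoprecipitate in chow and from 125 to 205 FPKM after the high-fat diet. Its log2 fold of 0.85 (SE 0.23) was the highest of all proteasome genes in chow (q = 0.000379 in the authors' deposited table). Psmb5, the chymotrypsin-like subunit and the main target of the drug bortezomib, went from 99.2 to 175 FPKM in chow and from 102 to 170 FPKM after the high-fat diet. Psmb7, the trypsin-like subunit, went from 144 to 234 FPKM and from 126 to 209 FPKM, and its level is uncertain because its deposited span is 2.36 times as long as the gene and takes in Nek6. After the high-fat diet Psmb5 was the highest of the ring (0.74, SE 0.27, and q = 0.000379 in the authors' deposited table). In all 3 the immunoprecipitate value exceeded input by 1.63- to 1.80-fold across diets.

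The promoters of Psmb5 and Psmb6 are shown because stress-induced transcription of proteasome genes runs through the factor NRF1 (gene Nfe2l1), which binds antioxidant response elements. Beside them stands the promoter of Psme4, a depleted gene with the same letters, and that of the depleted Psmb8 with a match to the binding motif of interferon-activated STAT factors. The windows are RefSeq sequences of GRCm38.p6, each of 300 bases around the start site and read on the strand of the gene. They lie at chr14:54617946-54618245 (minus strand), chr11:70525107-70525406 (plus), chr11:30771525-30771824 (plus) and chr17:34197945-34198244 (plus). Capitals mark TGACNNNGC on either strand in the first 3, with its first base at -47, -9 and -7 from the start site, and TTCNNNGAA in Psmb8, at -97.
Psmb5: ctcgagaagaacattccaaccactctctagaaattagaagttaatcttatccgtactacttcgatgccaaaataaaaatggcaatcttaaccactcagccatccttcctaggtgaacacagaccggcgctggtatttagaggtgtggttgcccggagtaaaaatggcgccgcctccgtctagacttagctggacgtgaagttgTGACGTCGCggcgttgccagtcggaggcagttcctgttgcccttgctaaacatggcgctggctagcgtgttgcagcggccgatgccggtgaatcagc
Psmb6: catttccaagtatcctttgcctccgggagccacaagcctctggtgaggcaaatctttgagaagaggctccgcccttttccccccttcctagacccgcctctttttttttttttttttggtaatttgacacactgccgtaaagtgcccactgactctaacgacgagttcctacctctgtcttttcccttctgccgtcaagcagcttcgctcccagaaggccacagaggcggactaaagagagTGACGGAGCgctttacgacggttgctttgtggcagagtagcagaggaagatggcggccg
Psme4: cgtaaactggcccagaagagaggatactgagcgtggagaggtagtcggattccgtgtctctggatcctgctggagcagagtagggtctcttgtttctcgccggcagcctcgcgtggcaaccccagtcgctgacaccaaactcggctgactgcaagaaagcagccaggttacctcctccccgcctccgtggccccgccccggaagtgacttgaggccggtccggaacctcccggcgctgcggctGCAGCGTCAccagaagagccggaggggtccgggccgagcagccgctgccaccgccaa
Psmb8: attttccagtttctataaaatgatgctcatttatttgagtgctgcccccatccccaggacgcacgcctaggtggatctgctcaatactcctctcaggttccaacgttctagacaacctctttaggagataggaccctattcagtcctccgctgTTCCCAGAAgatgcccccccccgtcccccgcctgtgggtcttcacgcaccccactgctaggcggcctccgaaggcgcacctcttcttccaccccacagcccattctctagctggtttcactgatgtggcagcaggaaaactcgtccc

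A promoter was found for 29 of the 35 listed genes. TGACNNNGC occurred in 4 of them, namely Psmb5, Psmb6, Psmd12 and Psme4, or 13.8%, beside 12.4% of all 32851 promoters. TGAGNNNGC, the other form of the antioxidant response element searched, occurred in 9 of the 29, or 31.0%, beside 17.6% of all promoters. CCGGAAG, the core letters bound by ETS factors, also occurred in 9, beside 8.86%. The CCAAT box, bound by NF-Y, stood in 11, or 37.9%, beside 37.4%. TTCNNNGAA was found for Psmb8, Psmd2 and Psmg1, beside 8.30% of all promoters. The interferon-stimulated element, searched as GAAA, 2 bases of any kind and GAAA, stood in Psmb3, Psmd4, Psme1 and Psmg4, or 13.8%, beside 3.44%. All motifs were searched on both strands, and the only other one in the printed windows is CCGGAAG in Psme4 at -53, apart from the capitals. Shares of proteasome genes count genes, while those of all promoters count windows and are not limited to listed genes, so the 2 are not like for like. These matches describe letters only.

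The other beta subunits build the ring without proteolytic sites. Psmb2 went from 93.4 to 153 FPKM in chow and from 91.8 to 144 FPKM after the high-fat diet, and Psmb4 from 120 to 187 FPKM and from 112 to 175 FPKM. Psmb1 had the lowest fold of the ring in chow (0.62, SE 0.24, q = 0.000379 in the authors' deposited table), going from 50.8 to 78.3 FPKM. Psmb3 went from 49.8 to 84.4 FPKM in chow and from 50.1 to 68.5 FPKM after the high-fat diet, where it was the lowest of the ring (0.45, SE 0.25, q = 0.00397 in the authors' deposited table). Within the ring, input levels ran from 49.8 to 144 FPKM in chow, and the coefficient of variation was 36.9% in input and 37.8% in immunoprecipitate. Levels were unequal within the ring in both fractions, while each assembled ring holds a single copy of each protein.

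**Figure D2:**
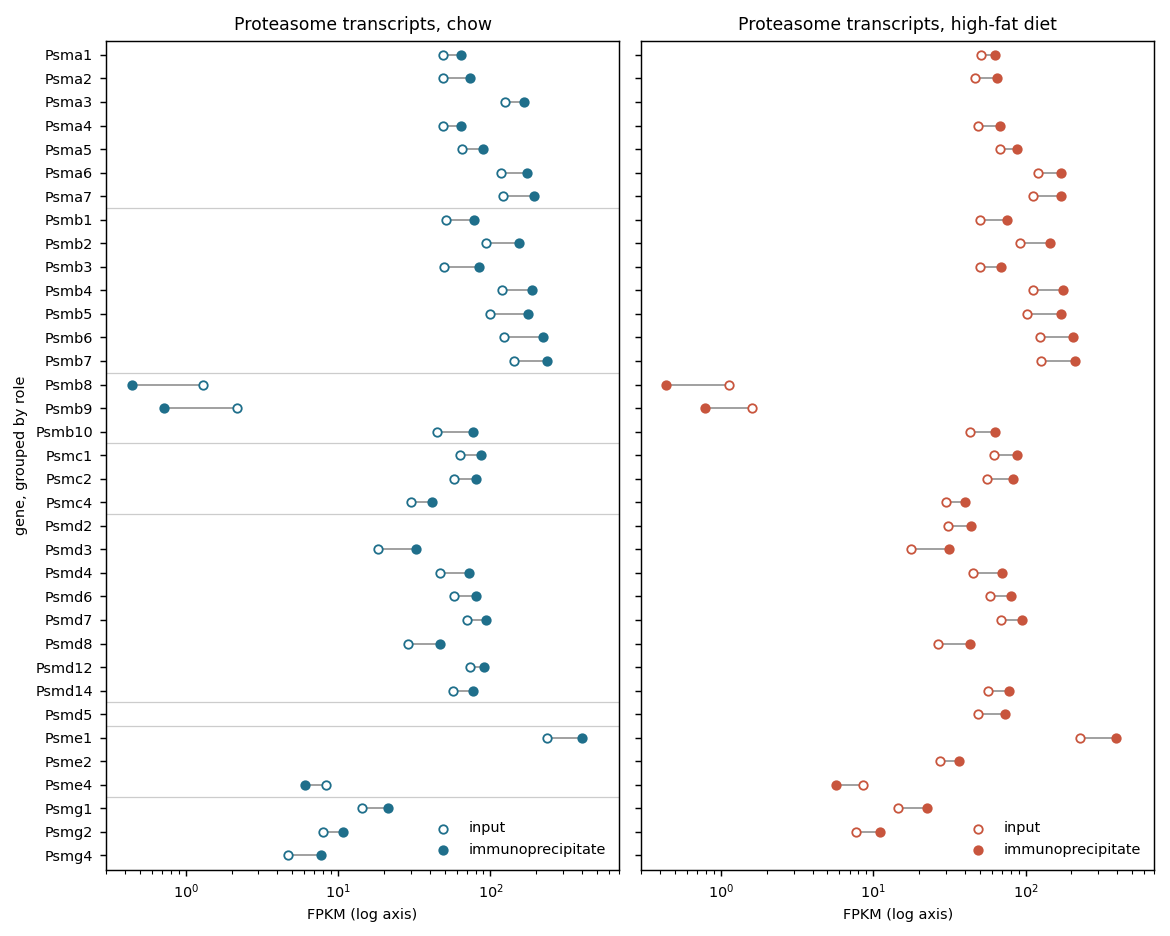
FPKM on a log axis (horizontal) for each listed proteasome gene (vertical, grouped by role) in input (open) and immunoprecipitate (filled), for chow (left) and high-fat diet (right); each point is the authors' single value for a group. Filled points lie to the right of open ones for all genes except Psmb8, Psmb9 and Psme4, and Psme1 is the most abundant.

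The alpha ring, whose subunits gate the entry to the barrel, was enriched as well, with 7 of 8 annotated members listed in chow and 6 after the high-fat diet. The unlisted one in both was Psma8, a form known from testis. Psma7 had the highest fold of the ring and went from 121 to 194 FPKM in chow (0.68, SE 0.23) and from 113 to 171 FPKM after the high-fat diet (0.60, SE 0.23), with q = 0.000379 for both in the authors' deposited table. Psma4 was the lowest in chow, from 49.0 to 64.1 FPKM (0.39, SE 0.24, and q = 0.00899 in the authors' deposited table). Psma1 was the lowest after the high-fat diet, from 50.7 to 63.3 FPKM (0.32, SE 0.24, and q = 0.0349 in the same source). Psma3 was listed in chow only, from 124 to 166 FPKM. Psma2, Psma5 and Psma6 lay between these, with log2 folds from 0.46 to 0.57 in chow and from 0.37 to 0.50 after the high-fat diet.

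Folds of the beta ring were mostly above those of the alpha ring, a difference that was not tested, since members are not replicates. The median log2 fold was 0.71 for the beta and 0.46 for the alpha ring in chow, and 0.65 and 0.48 after the high-fat diet. In each diet 5 of 7 beta subunits lay above the highest alpha subunit. Base composition moved with this order. Transcripts of listed alpha subunits held 39.4% to 51.6% G and C, and those of beta subunits 44.7% to 56.6%. Across all 32 listed proteasome genes, Spearman's rho of fold and G and C content was 0.56 in chow, beside 0.28 across 6328 listed protein-coding genes, and 0.32 after the high-fat diet, beside 0.27 across 6183. Among the 29 enriched genes alone, a choice by the fold itself that leaves out the depleted Psmb8 and Psmb9 with 55.8% and 55.3% G and C, it was 0.79 in chow and 0.48 after the high-fat diet, beside 0.25 in each for enriched protein-coding genes. All these values come from the same amplified libraries, and the part of base composition in the folds was not tested. Over all listed members, the fold had a rho of -0.50 with transcript length in chow and -0.25 after the high-fat diet, beside -0.32 and -0.23 across all listed protein-coding genes.

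**Figure D3:**
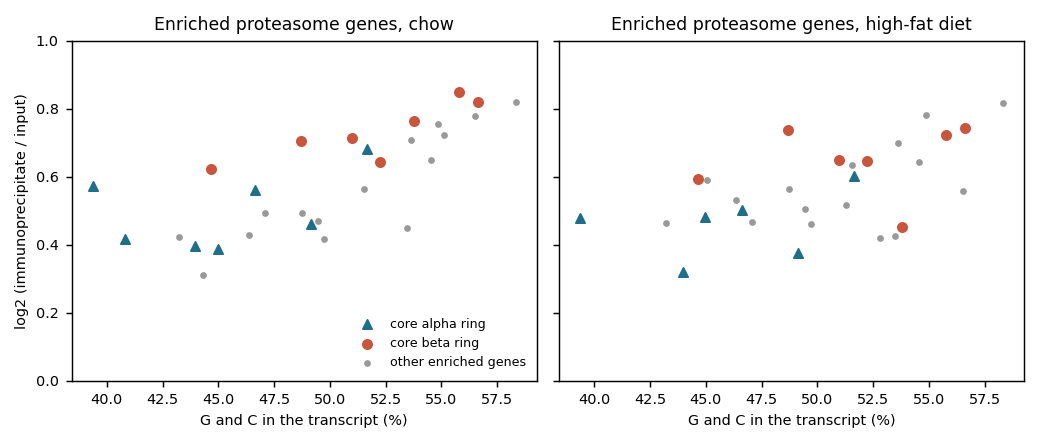
Log2 fold of each enriched proteasome gene (vertical axis) against the G and C content of the transcript with its longest coding sequence in percent (horizontal axis), with triangles for the alpha ring, large circles for the beta ring and small points for the other enriched genes. Among these enriched genes folds are higher towards the right in chow (rho 0.79) and less closely so after the high-fat diet (rho 0.48), while rho over all 32 listed genes, the depleted ones included, was 0.56 and 0.32.

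The immunoproteasome subunits went in opposite directions. Psmb8, which replaces Psmb5, went from 1.302 to 0.444 FPKM in chow and from 1.12 to 0.436 FPKM after the high-fat diet, or 34.1% and 38.8% of input. Psmb9, which replaces Psmb6, went from 2.17 to 0.716 FPKM and from 1.61 to 0.789 FPKM, or 33.0% and 48.9% of input. Their log2 folds were -1.55 (SE 0.74) and -1.60 (SE 0.98) in chow, with q-values of 0.00190 and 0.000379 in the authors' deposited table. After the high-fat diet they were -1.37 (SE 0.76) and -1.03 (SE 0.84), with q-values of 0.00701 and 0.0139 in the authors' deposited table. Psmb10, which replaces Psmb7, was enriched instead, from 44.8 to 76.7 FPKM in chow (0.78, SE 0.33) and from 43.0 to 63.4 FPKM after the high-fat diet (0.56, SE 0.34), with q-values of 0.000379 and 0.00517 in the authors' deposited table. Psmb11, the thymus form, was not listed in either table.

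Psmb8 and Psmb9 are neighbours in the MHC region. Psmb8 lies on the plus strand of chromosome 17 at 34197721 to 34201454 and Psmb9 on the minus strand at 34181987 to 34187764 (GENCODE M21, GRCm38). The transporter genes Tap1 and Tap2, which carry peptides into the endoplasmic reticulum, fall within the spans that the deposited tables give for them. Psmb10 lies apart, between 105935735 and 105938444 of chromosome 8 (minus strand). Its deposited span is 11.7 times as long as the gene and takes in Lcat and Slc12a4. Lcat has its own entry in that span and stood at 9.40% of input in chow and 8.85% after the high-fat diet, the opposite direction to Psmb10. How reads were divided within such shared spans is not given in the sources used here, so the levels of these 3 immunoproteasome genes are uncertain.

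Levels within each pair show how little immunoproteasome RNA was listed at 2 of the 3 sites. On the FPKM scale, which is per length, Psmb9 made up 1.75% of the sum of Psmb6 and Psmb9 in chow input and 0.325% in chow immunoprecipitate. Psmb8 made up 1.295% of the sum with Psmb5 in chow input and 0.253% in immunoprecipitate. After the high-fat diet these shares were 1.28% and 0.383% for Psmb9, and 1.09% and 0.256% for Psmb8. For Psmb10 the share of the sum with Psmb7 was 23.8% in chow input and 24.7% in immunoprecipitate, and 25.5% and 23.2% after the high-fat diet.

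**Figure D4:**
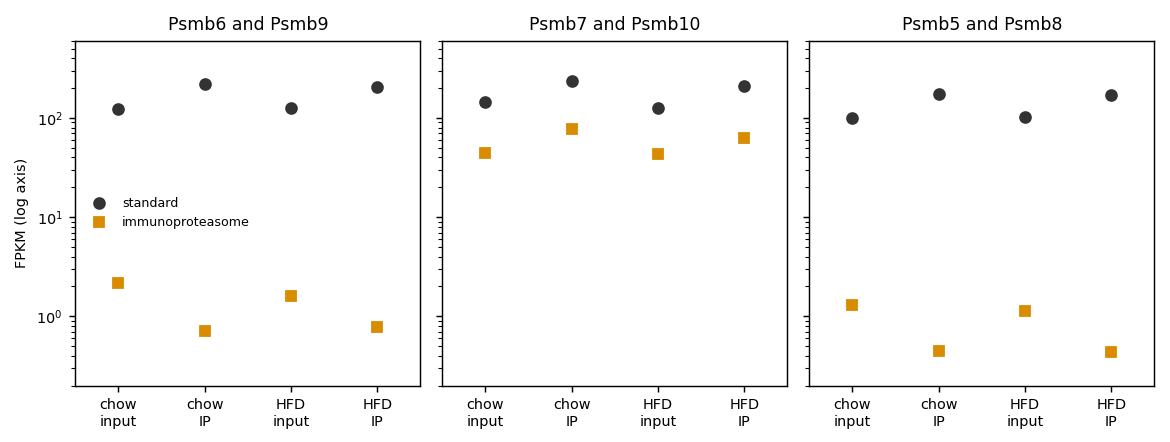
FPKM on a log axis (vertical) of each standard catalytic subunit (circles) and its immunoproteasome counterpart (squares) in input and immunoprecipitate (IP) of chow and high-fat diet (HFD); each point is the authors' single value for a group, without error. Psmb9 and Psmb8 lie far below their partners, with shares of 1.75% and 1.295% of the pair in chow input, while Psmb10 lies within a factor of 3.30 of Psmb7.

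Genes that act with the immunoproteasome in peptide presentation were listed in part. Of 9 such genes 1 was enriched and 3 were depleted in each diet. B2m, the light chain of MHC class I, went from 87.9 to 42.4 FPKM in chow and from 84.6 to 38.2 FPKM after the high-fat diet, and the heavy chain H2-K1 from 6.82 to 1.95 FPKM and from 5.81 to 1.74 FPKM. H2-D1, another heavy chain, was enriched at 0.52 and 0.42. As H2 genes have near-identical copies, the reads of both H2-K1 and H2-D1 are uncertain. Irf1, an interferon-induced transcription factor, was depleted in chow (-0.92), and Tap1 after the high-fat diet (-1.68).

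Markers of other cells were lower in the same libraries. Of 8 microglial markers 6 were listed, all depleted, and their summed level went from 44.5 to 3.99 FPKM in chow and from 46.7 to 4.63 FPKM after the high-fat diet. Of 6 endothelial markers 4 were listed in each diet, all depleted, with sums from 4.61 to 1.55 FPKM and from 4.09 to 0.497 FPKM. None of these listed markers stood at 0. The median microglial marker stood at 9.23% of input in chow and 8.99% after the high-fat diet, below the 34.1% and 38.8% of Psmb8. The endothelial markers listed were not the same genes in both diets, with Pecam1 in chow only and Tek after the high-fat diet only, so their sums cannot be compared between diets. They stood at 25.4% to 46.6% of input in chow, a range that takes in Psmb8 and Psmb9, and at 10.98% to 14.7% after the high-fat diet, below both. Their part in the values of Psmb8 and Psmb9 was not tested.

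The ATPases of the regulatory particle form the ring that unfolds substrates, and 3 of 6 were listed, all enriched. Psmc2 went from 57.3 to 80.7 FPKM in chow and from 56.1 to 82.9 FPKM after the high-fat diet, the highest folds of the ring (0.49 and 0.56, both with q = 0.000379 in the authors' deposited table). Psmc4 had the lowest folds (0.45 and 0.42, with q-values of 0.00296 and 0.00493 in the authors' deposited table), from 30.3 to 41.4 FPKM and from 29.9 to 40.1 FPKM. Psmc1 lay between them at 0.47 and 0.50. These folds differed by less than the SE of each, which was 0.23 to 0.25. Psmc3, Psmc5 and Psmc6 were not listed in either table and cannot be called unchanged.

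Of 11 non-ATPase subunits of the regulatory particle, 7 were listed in each diet and all of them were enriched. Psmd3, a scaffold of the lid, had the highest fold in both diets, from 18.4 to 32.4 FPKM in chow (0.82, SE 0.24) and from 17.7 to 31.2 FPKM after the high-fat diet (0.82, SE 0.24), with q = 0.000379 for both in the authors' deposited table. It was also the highest of all proteasome genes after the high-fat diet, although its input level was the lowest of this class. Psmd4, a receptor for ubiquitin chains, went from 46.3 to 72.6 FPKM and from 44.9 to 70.1 FPKM. Psmd14, the enzyme that cuts ubiquitin off the substrate before entry, went from 57.1 to 76.6 FPKM and from 56.6 to 78.1 FPKM.

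The remaining lid and base subunits had lower or similar folds. Psmd8 stood at 0.71 and 0.70 in chow and high-fat diet, Psmd6 at 0.49 and 0.47, and Psmd7 at 0.42 and 0.46. Psmd7 was the lowest of the class after the high-fat diet, from 69.1 to 95.1 FPKM (SE 0.23, and q = 0.00132 in the authors' deposited table). Psmd12 was listed in chow only, from 73.4 to 91.0 FPKM, with the lowest fold among enriched proteasome genes there (0.31, SE 0.24, and q = 0.0367 in the authors' deposited table). Psmd2, a large base subunit that binds ubiquitin-like domains, was listed after the high-fat diet only, from 30.8 to 44.1 FPKM (0.52, SE 0.28). Being listed in a single table does not show a difference between diets.

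Activators that open the barrel in place of the regulatory particle went both ways. Psme1, a subunit of the interferon-induced activator ring, was the most abundant proteasome transcript and went from 236 to 399 FPKM in chow (0.76, SE 0.29) and from 227 to 390 FPKM after the high-fat diet (0.78, SE 0.29), with q = 0.000379 for both in the authors' deposited table. Its partner in that ring, Psme2, was listed after the high-fat diet only, from 27.3 to 36.5 FPKM (0.42, SE 0.31, and q = 0.0275 in the authors' deposited table). Both lie close together on chromosome 14, at 55578123 to 55581529 on the plus strand and at 55587441 to 55591113 on the minus strand. The deposited span of Psme1 also takes in Emc9, so its level is uncertain.

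Psme4, a large single-chain activator known for its role in sperm and in DNA repair, was depleted. It went from 8.40 to 6.03 FPKM in chow (-0.48, SE 0.34, and q = 0.00372 in the authors' deposited table) and from 8.60 to 5.66 FPKM after the high-fat diet (-0.60, SE 0.29, q = 0.000379 in that source). This left 71.8% and 65.9% of input. Its annotated transcript of 6491 bases is the longest of the family, beside a median of 1294 bases for the listed genes, and holds 43.9% G and C. The part of length in its depletion was not tested. Psme3 and the inhibitor Psmf1 were not listed.

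The listed assembly factors were enriched. Those of the core named Psmg lay below the median input of listed proteasome genes, which was 54.0 FPKM in chow and 50.2 FPKM after the high-fat diet. Psmg1 and Psmg2 form a pair that guides alpha ring assembly. Psmg1 went from 14.4 to 21.3 FPKM in chow (0.56, SE 0.28) and from 14.5 to 22.5 FPKM after the high-fat diet (0.64, SE 0.29), and Psmg2 from 7.98 to 10.7 FPKM (0.43, SE 0.32) and from 7.72 to 11.2 FPKM (0.53, SE 0.33). Their q-values in the authors' deposited table were 0.00103 and 0.000379 for Psmg1, and 0.0253 and 0.00564 for Psmg2. Psmg4, which works with Psmg3, was listed in chow only, from 4.68 to 7.72 FPKM (0.72, SE 0.47, and q = 0.0111 in the authors' deposited table). Psmd5, a chaperone of the base, was listed after the high-fat diet only, from 48.4 to 72.9 FPKM (0.59, SE 0.44, and q = 0.0357 in the authors' deposited table), with Cutal in its deposited span.

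The annotation holds 50 protein-coding genes of this name pattern, so each table listed 64.0% of them. Of all 21951 annotated protein-coding genes, at any level, 29.0% were listed in chow and 28.3% after the high-fat diet. Listed proteasome genes had a median input of 54.0 FPKM in chow, beside 9.79 FPKM for all listed tests. After the high-fat diet these medians were 50.2 and 10.3 FPKM. The part of expression level in the share listed was not tested. The 15 genes without an entry of their own in either table were Psma8, Psmb11, Psmc3, Psmc5, Psmc6, Psmd1, Psmd9, Psmd10, Psmd11, Psmd13, Psme2b, Psme3, Psmf1, Psmg3 and Psmc3ip. The last is a recombination factor named for an interaction and not a proteasome subunit. Psmg3 was part of a merged entry with Tmem184a and Gm26938, which went from 7.52 to 15.9 FPKM in chow and from 8.45 to 13.5 FPKM after the high-fat diet. Psmd1 was part of a merged entry with Armc9 and Gm21972 after the high-fat diet, from 80.1 to 105 FPKM. Reads of these entries cannot be assigned to a single gene.

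Proteasome genes with other names were enriched where listed, 4 of 8 in chow and 3 of 8 after the high-fat diet. Pomp, the chaperone that completes the core, went from 121 to 195 FPKM in chow (0.69) and from 119 to 187 FPKM after the high-fat diet (0.65). Adrm1, a ubiquitin receptor of the regulatory particle, stood at 0.60 and 0.72, Usp14, a deubiquitinase bound to it, at 0.55 and 0.66, and the small subunit gene Sem1 at 0.59 in chow. Of 14 genes that supply ubiquitin or shuttle substrates, 7 were enriched in chow, 8 after the high-fat diet, and none was depleted. Among them the unfolding ATPase Vcp went from 52.1 to 72.7 FPKM in chow (0.48) and from 52.0 to 78.3 FPKM after the high-fat diet (0.59). The shuttle factor Ubqln4 was the lowest of the list after the high-fat diet (0.30).

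Of 4 regulators of proteasome genes only Nfe2l2 was listed. It encodes the NRF2 factor of the oxidative stress response and went from 9.89 to 1.96 FPKM in chow (-2.34) and from 9.22 to 2.32 FPKM after the high-fat diet (-1.99). This was the opposite direction to the core subunits. Nfe2l1, Akirin2 and Zfand5 had no entry.

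In comparison with 2 other groups of housekeeping genes, the proteasome's share of enriched genes among listed ones was close to that of translation factors in chow. The differences were not tested. For the proteasome 29 of 32 listed genes were enriched in each diet. Of 68 genes named as translation initiation or elongation factors (Eif and Eef symbols, binding proteins and kinases of that name included), 22 were listed in each diet. Of these, 19 were enriched and 3 depleted in chow, with a median log2 fold of 0.48, and 18 and 4 after the high-fat diet (0.41). Of 76 cytosolic ribosomal protein genes, 16 were listed in chow, 6 enriched and 10 depleted (median -0.32). After the high-fat diet 23 were listed, 1 enriched and 22 depleted (median -0.47).

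Between diets, the enrichment of proteasome transcripts was compared by the difference of their log2 folds. No gene passed the two-sided z-test of the difference between folds, neither among the 29 proteasome genes (smallest unadjusted p 0.370) nor among all 5149 tests, of which 0% were called with Benjamini-Hochberg adjustment and 1 (0.0194%) had an unadjusted p under 0.05. That share is below the nominal one, and the test had little power. The recovered SEs are wide, and only tests called in both diets entered. The part of each in the low share was not tested. The median difference of the proteasome genes, high-fat minus chow, was -0.01 log2 units, with 12 differences above and 17 below 0. Among the 26 genes enriched in both diets the differences stayed within 0.31 log2 units. Spearman's rho of the folds between diets was 0.81 over the 29 genes, beside 0.96 over all tests in the comparison.

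Intervals of these differences were wide. Psmb9 had the largest difference, 0.57 log2 units with a 95% interval from -1.96 to 3.09, at levels near 1 FPKM. Psmb3 followed with -0.31 (interval -1.01 to 0.38) and Psmb10 with -0.22 (interval -1.14 to 0.70). For the median gene the interval reached 0.68 log2 units to either side, so smaller differences would not have been detectable. These intervals are unadjusted, and a call after adjustment over all 5149 tests needed a larger difference still.

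**Figure D5:**
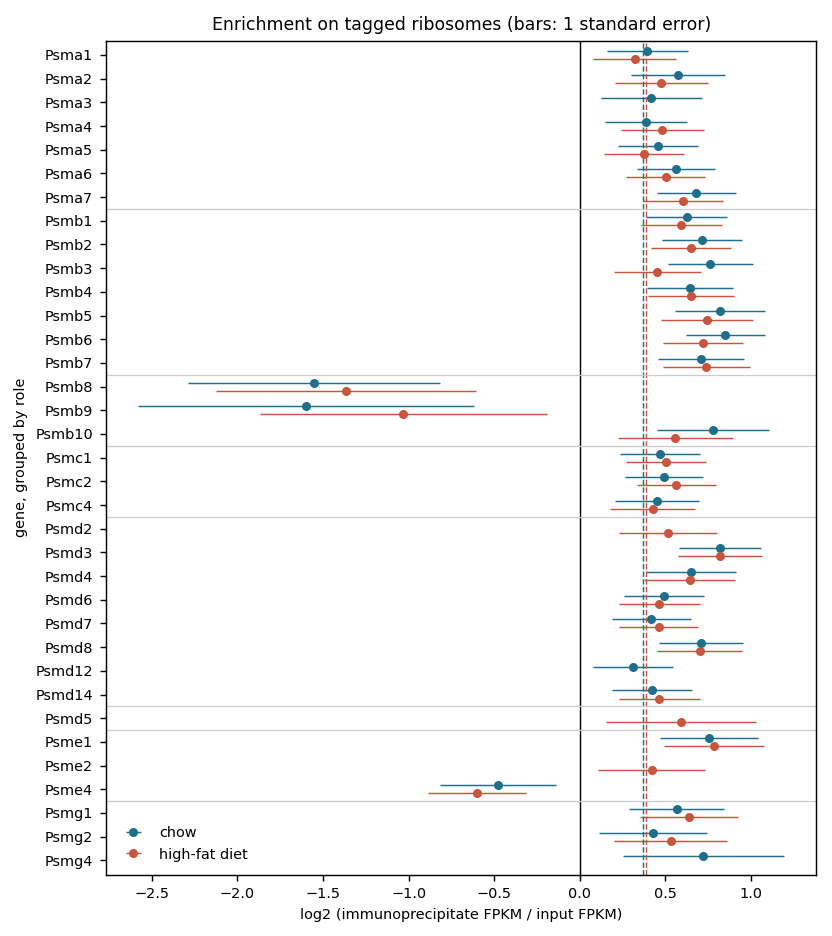
Log2 ratio of immunoprecipitate over input FPKM (horizontal axis) for each listed proteasome gene (vertical, grouped by role) in chow and high-fat diet, with bars of 1 standard error recovered from the authors' statistic; dashed lines mark the medians of all listed tests (0.37 and 0.39). Psmb8, Psmb9 and Psme4 lie below 0 in both diets, and the error bars of both diets overlap for all 29 genes listed in both.

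Levels themselves were also close between diets, as described without a test since each group has 1 value. The ratio of high-fat over chow FPKM had a median of 0.983 in input and 0.972 in immunoprecipitate over the 29 genes, beside 0.990 and 0.993 over all tests in both tables. Ratios ran from 0.743 to 1.04 in input, the lowest being Psmb9, and from 0.811 to 1.10 in immunoprecipitate, from Psmb3 to Psmb9. In each fraction 20 of 29 genes had the lower value after the high-fat diet, beside 55.5% of all tests in input and 52.9% in immunoprecipitate. Whether FPKM were scaled jointly across diets is not given, so these ratios may carry a shift common to all genes.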

How the data were processed

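Per the labels' protocols, frozen hypothalamus was used, RNA was purified by column, amplified with the Ovation RNASeq V2 system and made into Nextera XT libraries. Per the submitters' processing notes, the tools were Cufflinks 2.2.1, Cuffdiff, StringTie 1.3.4d and HISAT2 2.1.0, on build GRCm38.p6, without their settings. There is 1 deposited table per diet, laid out as Cuffdiff output per the file headers, and it holds the authors' FPKM per group, log2 fold, test statistic (a signed score), p-value and q-value. Every entry is marked significant. Strand use is not stated.

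Log2 folds were recomputed from the deposited FPKM and differed from the deposited ones by at most 9.49e-06. Entries repeating the values of a locus were merged into 1 test, leaving 6686 and 6540. Calls are the authors' at a q of 0.05. The difference between diets was tested over 5149 tests of at least 1 FPKM with finite folds, centred on its median of 0.0062. A two-sided z-test (SciPy 1.17.1) with Benjamini-Hochberg adjustment was used. Its code was run on simulated folds whose normal noise was drawn with the same SEs that the test uses. That run cannot show how the test behaves when the SEs are too wide. The z-test is a normal approximation without values per library. Positions, lengths and base composition come from GENCODE M21, using the transcript with the longest coding sequence per gene, and promoters from RefSeq. No per-sample column was set aside (0 such columns). Members and lists were chosen with earlier results of these data known. Ribosomal S6 kinases were taken out of the ribosomal protein list after its values were seen, since they are not ribosomal proteins. Some genes of the ubiquitin list are not reported here by name. Genes described in full were the highest and lowest of each class and diet, all immunoproteasome genes, activators and assembly factors, and the 3 largest differences between diets. The labels do not tie libraries to separate mice, so p-values reflect the scatter of libraries, which may be technical.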

Additional observations from a re-analysis of the deposited data

How the results depend on the processing

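No paired analysis was possible because the tables hold 1 value per group and carry no replicate number. The titles number input and immunoprecipitate libraries alike within each diet, but the labels do not say that a shared number means shared tissue, and whether the authors' test used such pairs is not given. As values are per group, no library could be left out. Of 49 alternative values, 44 were graded the same as the reported ones. Counts could not be graded as reversed, and the grade of a single gene rested on its sign and call, not on its p-value. Only median folds and differences of single genes could reverse, and none did. The tally is therefore partly fixed in advance and is no measure of robustness. At least 5 FPKM left 1 depleted gene, Psme4, in each diet, since Psmb8 and Psmb9 lie below that level. Centring on the median of listed tests lowered the median log2 fold to 0.20 in chow and 0.14 after the high-fat diet, and raised the depleted genes after the high-fat diet to 5. A q threshold of 0.01 left 24 enriched genes in chow and 25 after the high-fat diet, and 3 and 2 depleted ones, Psmb9 losing its call after the high-fat diet (q = 0.0139 in the authors' deposited table). Leaving out members whose span also carries another listed identifier (Psmb5, which has a second identifier of that name, Psmb10, and Psmb9 after the high-fat diet) left 27 enriched genes in each, with 3 and 2 depleted. Members whose span takes in another gene without an entry of its own stayed in. No name match outside the proteasome was listed, so leaving those out changed nothing. With the standard error taken from the p-value, Psmb3 had an unadjusted p of 0.167. No difference between diets was called under any of the 4 alternatives run (standard error from the p-value, no centring, no filter, at least 5 FPKM). Depth is unknown.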
